A study of Bos taurus with 32 samples.

Results

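EIF4G2, EIF4A1, EEF2 and PABPC4 encode 4 proteins of the translation machinery, and their m6A sites were described here across bovine oocyte maturation and early embryo development. The members are all rows of the deposited site table that carry one of these 4 gene symbols, which gave 102 of 65535 listed adenosines. EIF4G2 had 39 sites, EEF2 29, EIF4A1 17 and PABPC4 17. The genes were picked for sites still called late in development, which were few in PABPC4, with 3 of 17 in blastocysts. The counts of lasting sites below are therefore descriptions, and no test was made on them.

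m6A-SAC-seq detects N6-methyladenosine, adenosine of RNA with a methyl group, by adding an allyl group to it, which leaves a base change in the cDNA. The labels name 32 libraries of Bos taurus over 8 stages, in an input arm and a treated arm of 2 replicates, each started from 200 cells. The stages were germinal vesicle (GV) oocytes, which are immature, metaphase II (MII) oocytes, which are mature, embryos of 2, 4, 8 and 16 cells, morulae and blastocysts. Oocytes came from slaughterhouse ovaries, in follicles of 3 to 5 mm, were matured in vitro for 22 to 23 h and fertilised for 18 h with Holstein semen, and embryos were cultured up to day 7.5. How many animals a library pools is not given in the sources used here. Each listed adenosine has 1 score per stage. Replicate error is therefore missing, the read depth behind a score is unknown, and a higher score at a stage cannot be set against a spread.

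Translation of a capped mRNA begins when a scaffold of the eIF4G family and the RNA helicase eIF4A prepare the 5' end for the ribosome, while poly(A)-binding proteins hold the tail. Elongation then moves the ribosome along the mRNA with the help of elongation factors. In oocytes and cleaving embryos, proteins are at first made from stored maternal mRNAs, and in cattle the main wave of embryonic transcription comes around the 8-cell to 16-cell stage.

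Below, called means a score of 0.1 or more at that stage, a level that every listed row reached at 1 stage or more. Series of values follow the order of development, from GV or MII through the cleavage stages (2-cell to 16-cell) and the morula to the blastocyst. All 102 sites were called at GV and lie on the plus strand. Of the listed sites not called at GV, 4893 are on the minus strand and 225 on the plus strand, and these 225 are all in genes whose symbols begin with RPL or MRPL, which are ribosomal protein genes. Sites of the 4 genes first called after GV were therefore not analysed here. A score of 0 can mean an unmodified adenosine or no estimate, and a gene whose RNA is scarcer at a stage cannot be told apart from one whose RNA carries less m6A. As a partial check of the labelled cells, 9 of 10 oocyte markers had GV-called sites, 189 in all. Of these 76 were called at the 2-cell stage and 0 in blastocysts. Of the 7 trophectoderm and epithelial markers 3 had GV-called sites, 75 in all, with 3 called at the 2-cell stage and 30 in blastocysts. Of all GV-called sites 7.39% were called at the 2-cell stage and 7.64% in blastocysts. Since the marker sites were all called at GV, their counts cannot check the embryo labels by themselves. The 8 cumulus and granulosa markers had 31 GV-called sites in 3 genes and 12 at MII, and blood and sperm markers had 0.

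There were 10 sites called at all 8 stages, and they are shown first because the rest of the account returns to them. Each line gives the 5 bases that the table lists around the site, 5' to 3', with the scored adenosine in capitals.
EIF4G2 site 14: agAcc
EIF4A1 site 1: agAgt
EIF4A1 site 2: tgAtg
EIF4A1 site 3: agAtt
EIF4A1 site 4: agAag
EIF4A1 site 7: tgAtg
EIF4A1 site 13: ggAgt
EIF4A1 site 14: agAgt
EEF2 site 16: ggAca
PABPC4 site 11: caAgg
Sites are numbered from the 5' end of each gene. The consensus for m6A is called DRACH, where D is A, G or T, R is A or G, and H is A, C or T. Of the 10 sites, 2 match it, the EIF4G2 site and the EEF2 site. The 7 sites of EIF4A1 have a G before the adenosine and no C after it, and the site of PABPC4 has an A before and a G after it. Among all listed adenosines, 250 of 60417 GV-called sites were called at all 8 stages, which is 0.414%, and 79 of the 191 with a listed motif matched DRACH (41.4%, exact 95% interval 34.3 to 48.7).

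Over the 4 genes, 48, 23, 38, 46, 53, 41 and 58 of the 102 sites were called again from MII to blastocyst. In the same order 34.1%, 7.39%, 22.7%, 9.32%, 6.01%, 4.42% and 7.64% of all GV-called sites were called. The genes had been chosen on these calls, so the distance between both series is not a result. The percentage of the 4 genes was lowest in 2-cell embryos, at 22.5% (exact 95% interval 14.9 to 31.9), and highest in blastocysts, at 56.9% (interval 46.7 to 66.6). Intervals cover the counting of sites only, and sites of 1 transcript share its reads.

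**Figure D1:**
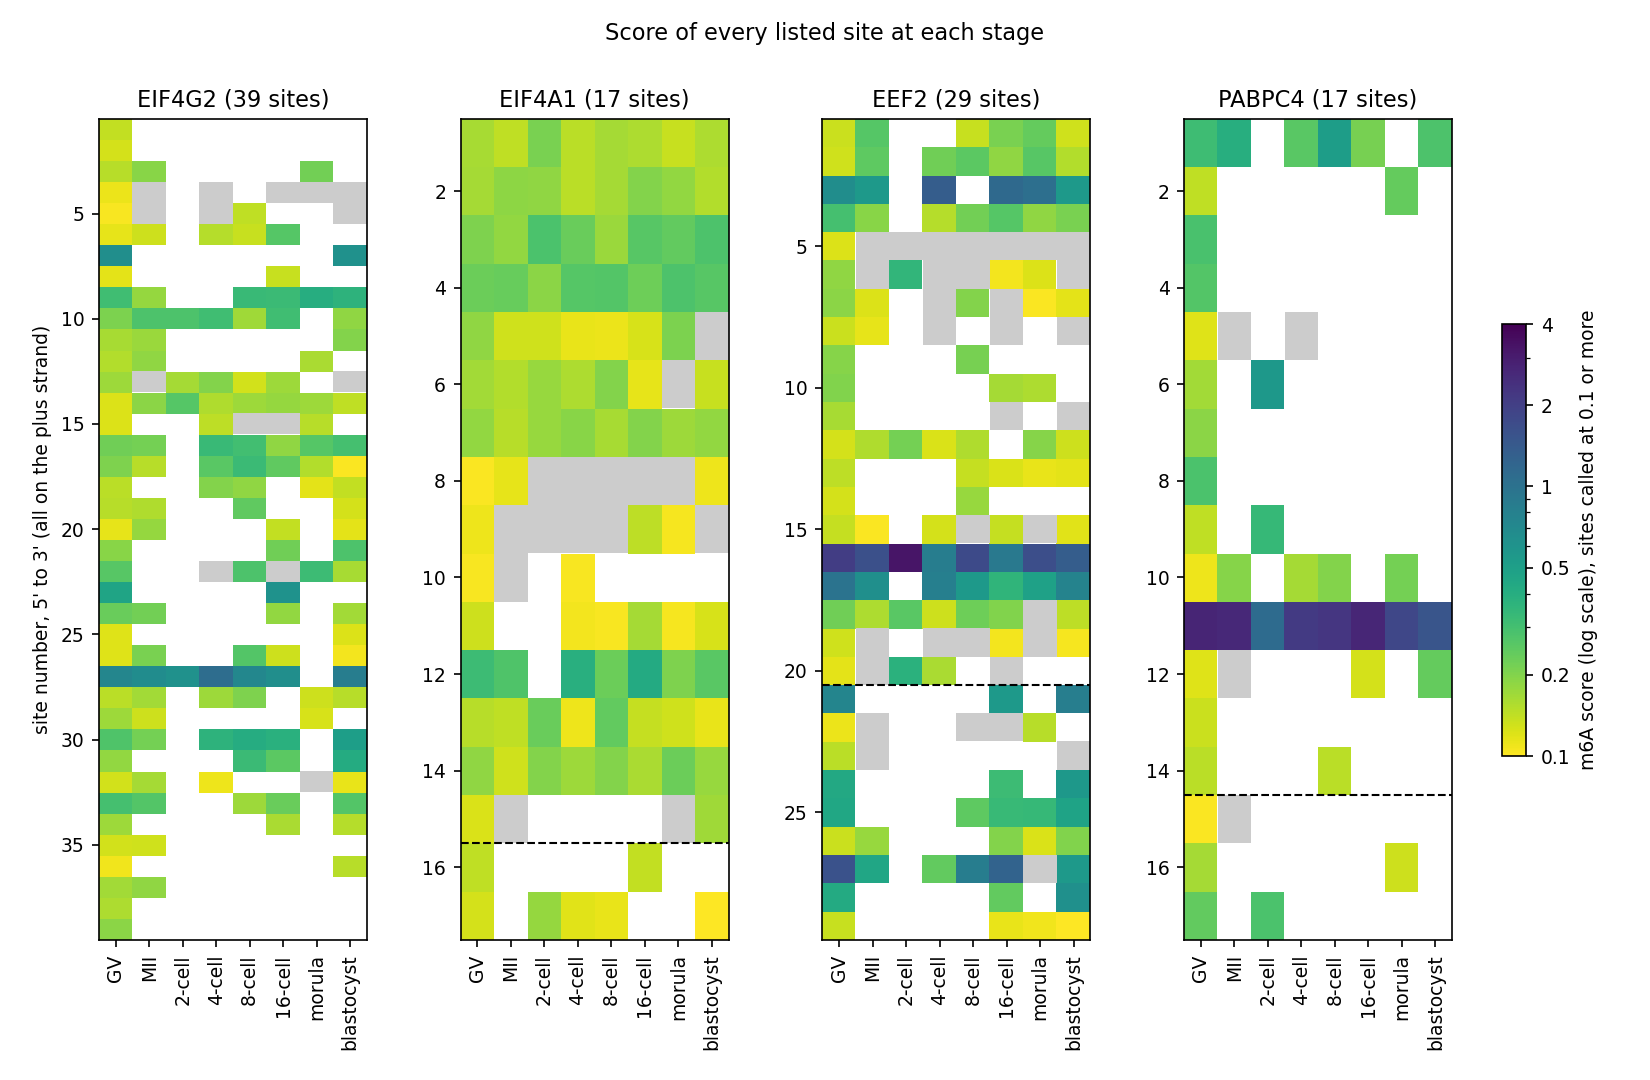
The score of each of the 102 sites (rows, numbered 5' to 3') at each of the 8 stages (columns), on a logarithmic colour scale. Grey cells have a score above 0 and under 0.1, white cells a score of 0, and the dashed line parts coding sites from 3' untranslated sites, which EIF4G2 has no annotation for. Most EIF4A1 rows are coloured at each stage, PABPC4 is coloured throughout along site 11 alone, and the column of 2-cell embryos is the emptiest in EIF4G2 and EEF2.

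The genes differed among themselves. EIF4A1 was called broadly at each stage, EIF4G2 and EEF2 had few calls at the 2-cell stage and more later, and PABPC4 had 1 site called throughout among sites mostly called at GV and at most 1 other stage. The number of stages at which a GV-called site was called had a median of 7 in EIF4A1, 4 in EEF2, 3 in EIF4G2 and 2 in PABPC4. Calls at 6 or more stages were found for 11 of 17 sites in EIF4A1, 9 of 29 in EEF2, 8 of 39 in EIF4G2 and 2 of 17 in PABPC4, against 2.37% of all GV-called sites.

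**Figure D2:**
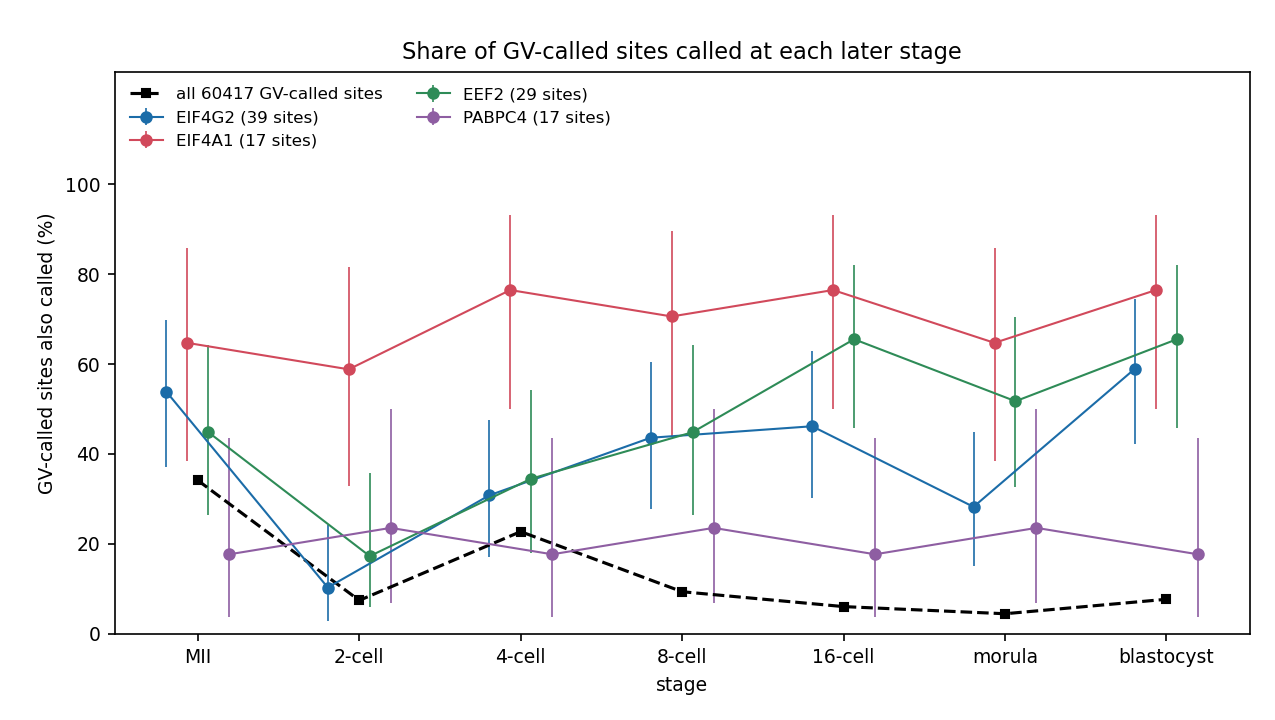
The percentage of each gene's GV-called sites called at the 7 later stages, with exact 95% binomial intervals as bars, and the same for all 60417 GV-called sites (dashed, black). EIF4A1 stays between 58.8% and 76.5%, PABPC4 between 17.6% and 23.5%, and EIF4G2 and EEF2 have their lowest value at the 2-cell stage.

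EIF4A1 encodes eIF4A1, the DEAD-box helicase that unwinds structure in the 5' untranslated region ahead of the scanning ribosome. Its 17 sites (ENSBTAG00000000132) lie between positions 27307478 and 27311202 of chromosome 19, 15 in coding sequence and 2 in the 3' untranslated region. For the positions, the genome build is not given in the sources used here. From MII to blastocyst, 11, 10, 13, 12, 13, 11 and 13 of them were called. EIF4A1 is the member with most calls at the 2-cell stage, where it held 10 of the 23 sites called in the 4 genes. Without it the 2-cell percentage of the other 3 genes was 15.3%, or 13 of 85.

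The 7 EIF4A1 sites called at all 8 stages are coding sites with low and even scores. Site 4, at position 27309107, scored 0.230, 0.235, 0.189, 0.265, 0.267, 0.226, 0.282 and 0.260 from GV to blastocyst. Site 7, at position 27309638, scored 0.182, 0.148, 0.177, 0.193, 0.161, 0.198, 0.171 and 0.183 in the same order. Neither site has a stage that stands apart, and their highest scores are 1.5 and 1.33 times their lowest. Site 3, at position 27308098, scored 0.203, 0.182, 0.284, 0.231, 0.175, 0.262, 0.244 and 0.281. Site 2, at position 27308030, scored 0.165, 0.186, 0.184, 0.147, 0.165, 0.199, 0.181 and 0.153. Site 1, the most 5' one at position 27307478, scored 0.163, 0.141, 0.211, 0.147, 0.164, 0.158, 0.135 and 0.158. Sites 1 and 3 were highest at the 2-cell stage, the stage at which most other members' sites had no call. Site 13, at position 27310098, scored 0.148, 0.142, 0.232, 0.110, 0.244, 0.139, 0.130 and 0.113. Site 14, at position 27310420, scored 0.185, 0.130, 0.197, 0.171, 0.199, 0.161, 0.230 and 0.177. Site 13 was the least even of the 7, high in 2-cell and 8-cell embryos. Over the 7 sites the ratio of highest to lowest score ran from 1.33 to 2.22 with a median of 1.56, and the scores lay between 0.110 and 0.284. Among the 250 sites of the whole table called at every stage the median ratio was 1.74 (quartiles 1.41 and 2.30). The SD of the log2 score over stages had a median of 0.19 at the 7 sites and 0.27 at the 250 (quartiles 0.17 and 0.39). Both medians of the 7 sites lay within the quartiles of the 250, so even scores are not particular to EIF4A1.

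EIF4A1 and the linker histone gene H1-5 each had 7 such sites, the most of the 93 protein-coding genes that had any. Most EIF4A1 sites are weak, with 14 of its 17 GV scores under 0.2, where 44.8% of all GV-called sites lay. The other members share this, with 28 of 39 under 0.2 in EIF4G2, 18 of 29 in EEF2 and 11 of 17 in PABPC4. At a stricter call of 0.2 none of the EIF4A1 sites was called at all 8 stages, and 3 sites remained at GV. With any score above 0 counted, 11 sites had a score at all 8 stages. Only 2 of the 17 sites match DRACH, which is 11.8% (exact 95% interval 1.46 to 36.4), against 34.2% of all GV-called sites with a motif. Those DRACH sites, both tgAca, were site 8, which scored 0.103 at GV and 0.110 in blastocysts, and site 15, which scored 0.123 and 0.170. Neither was called from the 2-cell stage to the morula.

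The highest GV score of EIF4A1 was at site 12, position 27310001, a caAtg motif with no G before the adenosine. It scored 0.319, 0.275, 0, 0.39, 0.230, 0.421, 0.204 and 0.256 from GV to blastocyst. The 2-cell stage was the single stage without a score there. The highest blastocyst score was 0.281 at site 3, an agAtt motif that scored 0.203 at GV. The 2 sites of the 3' untranslated region lasted less evenly. Site 16 was called at the 16-cell stage alone after GV, and site 17 at the 2-cell, 4-cell, 8-cell and blastocyst stages.

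**Figure D3:**
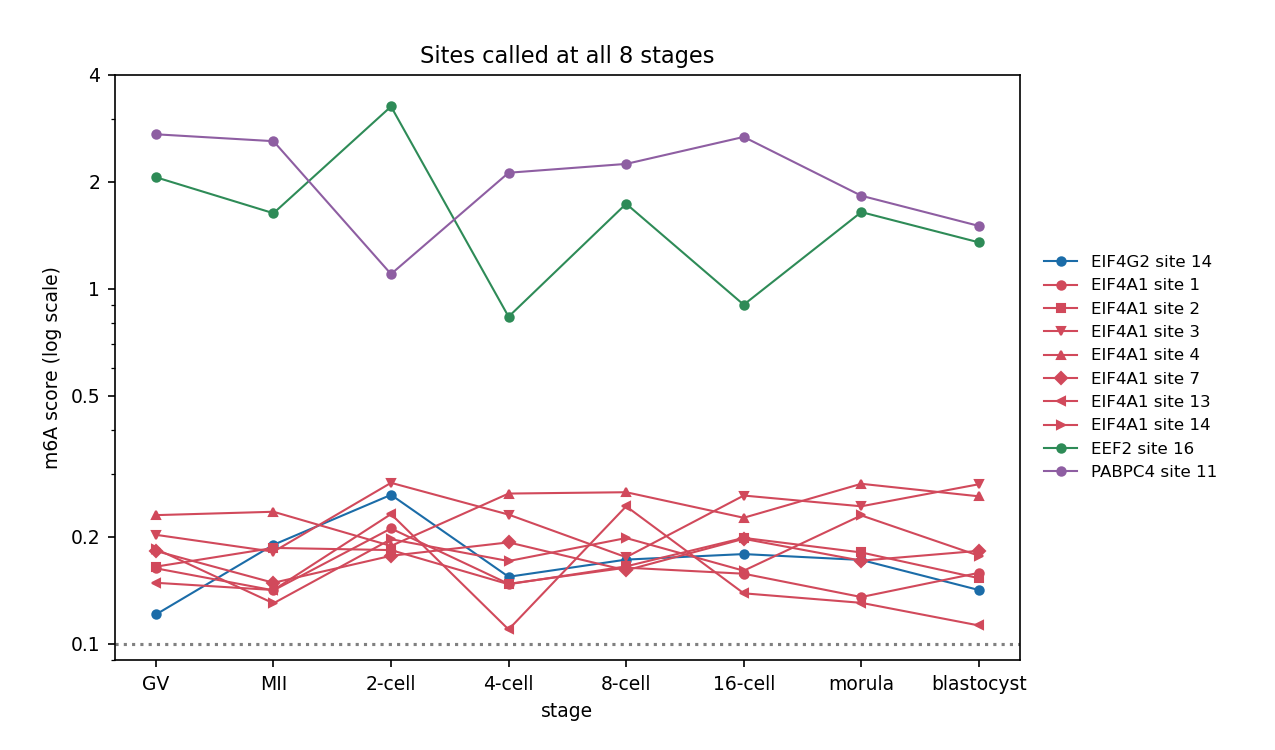
The scores (logarithmic axis) of the 10 sites called at all 8 stages, by stage, coloured by gene, with the call at 0.1 as a dotted line. The 7 EIF4A1 sites and the EIF4G2 site stay under 0.3, while the EEF2 site reaches 3.26 and the PABPC4 site 2.72.

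EIF4G2 encodes a relative of the scaffold eIF4G that lacks the part binding the cap-binding protein eIF4E, and it serves initiation that does not rely on eIF4E. Its 39 sites (ENSBTAG00000020308) lie between positions 41872357 and 41881322 of chromosome 15, and the table lists no region for any of them. From MII to blastocyst, 21, 4, 12, 17, 18, 11 and 23 of them were called. The number was lowest in 2-cell embryos and low again in morulae, and 20 of the 23 sites called in blastocysts were not called at the 2-cell stage, beside 81.9% of all GV-called sites called in blastocysts. Of the 39 sites 13 were called at none of the 2-cell, 4-cell and 8-cell stages and again in 16-cell embryos, morulae or blastocysts, which held for 5.35% of all GV-called sites.

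The strongest EIF4G2 site at GV and in blastocysts was site 27, a tgAaa motif at position 41878368. It scored 0.739, 0.669, 0.623, 1.07, 0.727, 0.648, 0 and 0.835 from GV to blastocyst. It was thus called at 7 stages and listed at 0 in morulae. Its GV score lay above 98.2% of the GV-called sites of the same motif, whose median was 0.205. Of 14 EIF4G2 sites called in both 16-cell embryos and blastocysts, 10 were not called in morulae, and all 10 had a score of 0 there. Of all GV-called sites called at both of these stages, 39.8% were not called in morulae. Of all 39 EIF4G2 sites only 11, or 28.2%, were called in morulae, so the gap was not particular to these 14 sites.

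Site 14 of EIF4G2, the agAcc site called at all stages, lies at position 41875167. It scored 0.121, 0.190, 0.263, 0.154, 0.173, 0.179, 0.172 and 0.142 from GV to blastocyst. GV was its lowest stage and the 2-cell stage its highest. The last 5 sites towards the 3' end, sites 35 to 39, had 1 call in all after MII, at site 36 in blastocysts with 0.149. Sites of EIF4G2 matched DRACH in 7 of 39 cases, 17.9% (exact 95% interval 7.54 to 33.5), and 5 of the 7 were called in blastocysts.

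The small nucleolar RNA gene SNORD97 has 3 sites of its own within the range of the EIF4G2 sites, which the table assigns to it and which were not counted here. From GV to blastocyst its site at position 41877022 scored 0.399, 0.416, 0, 0, 0.240, 0.321, 0.295 and 0.316.

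EEF2 encodes elongation factor 2, the GTPase that moves the ribosome forward by a codon after each peptide bond. Its 29 sites (ENSBTAG00000004258) lie between positions 20028875 and 20036568 of chromosome 7, 20 in coding sequence and 9 in the 3' untranslated region. From MII to blastocyst, 13, 5, 10, 13, 19, 15 and 19 of them were called. The 16-cell and blastocyst stages shared 17 sites, that is 17 of 19 on either side. Over all GV-called sites, 46.4% of those called at the 16-cell stage were called in blastocysts, and 36.5% of those called in blastocysts at the 16-cell stage. EEF2 had 65.5% of its sites called at each of these stages and was chosen on its late calls. The distance between its overlap and that of all sites is therefore not a result. Some EEF2 sites that were not called still had a score, 6 of 29 at MII and 5 of 29 in blastocysts. Over all GV-called sites 4.74% and 0.718% had a score above 0 and under 0.1 at these stages. The other members had such sites too, at MII 3 of 17 in EIF4A1, 3 of 17 in PABPC4 and 3 of 39 in EIF4G2. In blastocysts these genes had 2, 0 and 3 in that order. With called sites included, 19 of 29 EEF2 sites had any score above 0 at MII and 24 of 29 in blastocysts. Of all GV-called sites 38.9% and 8.35% had one.

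The strongest EEF2 site at GV and in blastocysts was site 16, a ggAca motif in coding sequence at position 20034825. It scored 2.06, 1.63, 3.26, 0.834, 1.74, 0.902, 1.64 and 1.35 from GV to blastocyst. The 2-cell value was the highest and the 4-cell value the lowest, 3.91 times apart. Scores at ggAca sites are high in general, with a GV median of 1.45 over 2330 sites, and scores above 1 cannot be fractions of modified RNA. Another ggAca site 39 bases downstream, site 17, scored 0.977, 0.641, 0, 0.814, 0.546, 0.358, 0.481 and 0.768 in the order of the stages, and was missing at the 2-cell stage only.

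In EEF2 the 3' untranslated sites followed another course than the coding sites. From MII to blastocyst 2, 0, 1, 2, 7, 4 and 7 of the 9 sites in the 3' untranslated region were called. Of the 20 coding sites 11, 5, 9, 11, 12, 11 and 12 were called in that order. The 3' untranslated sites therefore were scarce from MII to the 8-cell stage and common in 16-cell embryos and blastocysts, while the coding sites changed little outside the 2-cell stage. With 9 sites the exact 95% intervals are wide, 2.81 to 60.01% at MII and 40.0 to 97.2% in blastocysts, and a count of 0 at the 2-cell stage allows up to 33.6%. Of all GV-called 3' untranslated sites 36.6%, 8.27%, 21%, 7.89%, 5.57%, 4.97% and 8.35% were called at these stages, and of all coding sites 34.2%, 7.09%, 23.9%, 9.79%, 5.91%, 3.91% and 7.44%. This contrast was chosen after its values were seen, and a gene's read coverage along its length, which could differ between stages, was not tested.

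Site 25 of EEF2 shows that course. A ggAct motif at position 20036373, it scored 0.443, 0, 0, 0, 0.250, 0.334, 0.339 and 0.469 from GV to blastocyst. Site 21, ggAca at position 20036186, scored 0.743 at GV, 0.546 in 16-cell embryos, 0.829 in blastocysts and 0 at the other 5 stages. Site 24, gaAca at position 20036304, scored 0.430, 0.321 and 0.563 at the same 3 stages and 0 elsewhere. Site 28, ggAca at position 20036557, scored 0.421, 0.243 and 0.630 at these stages and 0 elsewhere. These 3 sites have the same pattern of presence and absence. All 4 match DRACH, and EEF2 had the highest DRACH share of the 4 genes with 12 of 29 sites, 41.4% (exact 95% interval 23.5 to 61.1). That interval holds the share of all GV-called sites with a motif, 34.2%.

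Site 27 of EEF2 differs, with a gaAgg motif that has no G before the adenosine. It scored 1.59, 0.450, 0, 0.244, 0.834, 1.24, 0.0135 and 0.544 from GV to blastocyst. Site 26 lies 1 base upstream of it and has an agAag motif. It was called at GV, MII, the 16-cell stage, the morula and the blastocyst, with scores from 0.123 to 0.201, so that these neighbours share 4 stages, GV, MII, 16-cell and blastocyst.

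**Figure D4:**
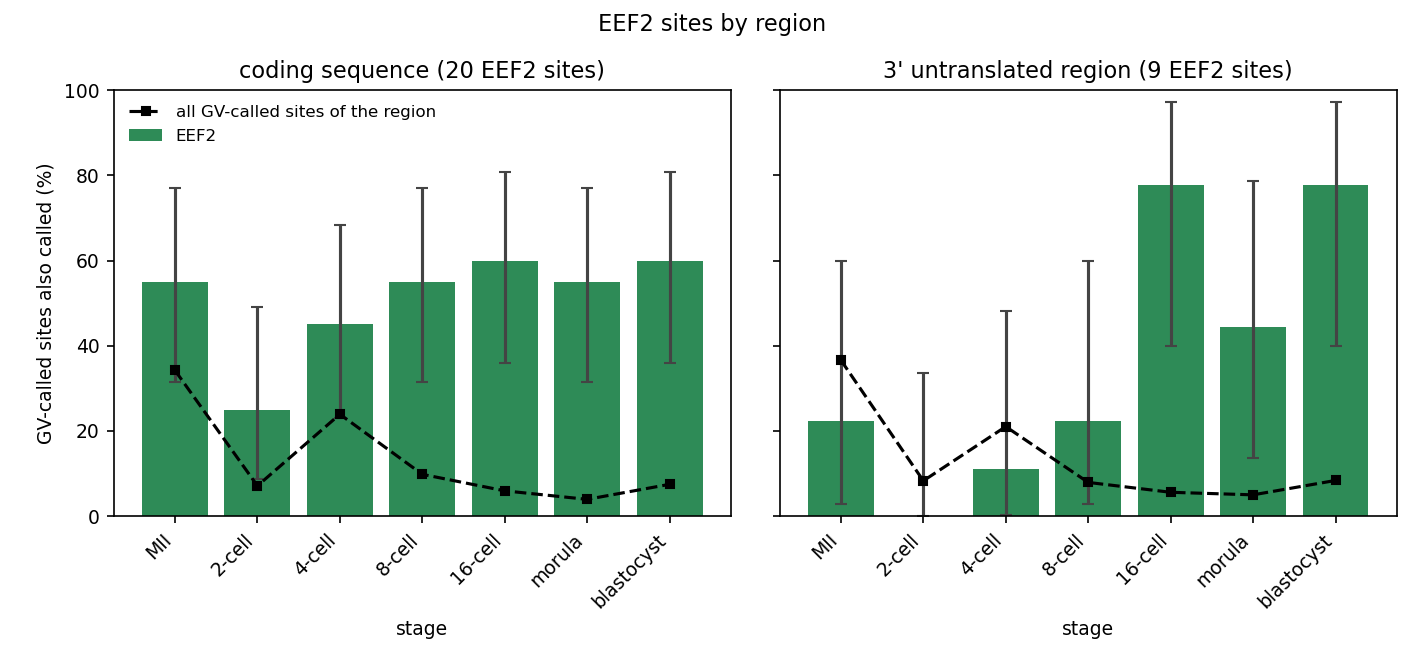
The percentage of EEF2 sites called at the 7 later stages, for the 20 coding and the 9 3' untranslated sites (bars, with exact 95% binomial intervals), beside all GV-called sites of the same region (squares). In the 3' untranslated region 22.2% were called at MII, 0% at the 2-cell stage and 77.8% at the 16-cell and blastocyst stages, while coding sites lie between 25% and 60%.

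PABPC4 encodes a cytoplasmic poly(A)-binding protein, a relative of PABPC1 that also coats mRNA tails. Its 17 sites (ENSBTAG00000017125) lie between positions 106498318 and 106507670 of chromosome 3, 14 in coding sequence and 3 in the 3' untranslated region. From MII to blastocyst, 3, 4, 3, 4, 3, 4 and 3 of them were called. That is 17.6% (exact 95% interval 3.80 to 43.4) where 3 were called and 23.5% (interval 6.81 to 49.9) where 4 were. PABPC4 lay below all GV-called sites at MII (34.1%) and in 4-cell embryos (22.7%), and above them at the other 5 stages, where all sites ranged from 4.42% to 9.32%. Of its 17 sites 7, or 41.2%, were called at GV alone, against 52% of all. With 17 sites, the intervals hold the share of all sites at each stage after GV except the morula. The gene was chosen on such calls and its sites share reads, so the intervals are no test. PABPC4 thus cannot be set apart from all sites in either direction at any stage, the morula included. PABPC4 had the lowest share of called sites of the 4 genes from the 4-cell stage to the blastocyst.

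Site 11 of PABPC4, a caAgg motif in coding sequence at position 106504009, was the lasting one and the strongest of the gene at GV and in blastocysts. It scored 2.72, 2.60, 1.10, 2.12, 2.25, 2.68, 1.83 and 1.503 from GV to blastocyst. The 2-cell value is the lowest and the blastocyst value the next lowest. Its GV score lay above 97.9% of the 48 GV-called caAgg sites, whose median was 0.443. Motifs with no G before the adenosine made up 2.77% of all GV-called sites with a motif, and their median GV score was 1.56, against 0.314 at DRACH sites. Whether such sites carry m6A cannot be told from the table, since no error rate comes with the calls.

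Of the other 16 PABPC4 sites, 2 were called at 5 or more stages. Site 1, a tgAac motif at position 106498318, was called at 6 stages, with 0.313, 0.397, 0, 0.256, 0.515, 0.214, 0 and 0.278 from GV to blastocyst. Site 10, agAcc at position 106503934, was called at 5, with 0.109, 0.196, 0, 0.165, 0.2, 0, 0.217 and 0 from GV to blastocyst. Both lacked a score at the 2-cell stage. The 3 sites beside site 11 that were called at the 2-cell stage, sites 6, 9 and 17, were called at no other stage after GV. Their 2-cell scores of 0.559, 0.340 and 0.285 all were above their GV scores of 0.167, 0.142 and 0.243.

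Where a site was called at both ends, the log2 of its blastocyst score over its GV score had a median of 0.01 over 23 sites in EIF4G2, -0.06 over 13 in EIF4A1, -0.25 over 19 in EEF2 and -0.17 over 3 in PABPC4. The sign is not stable across settings. At DRACH sites alone the median was 0.28 over 2 sites in EIF4A1, 0.08 over 9 in EEF2 and -0.06 over 5 in EIF4G2. EIF4A1 was at 0.18 with a call of 0.2, over 3 sites, and EIF4G2 at -0.07 with any score above 0, over 26. Scores were higher in blastocysts at 12, 5, 7 and 1 of these sites, 25 of 58 in all, against 62.3% of all sites shared by both stages. The median over all shared sites was 0.19. In EEF2 the median against GV was -0.34, 0.76, -0.20, 0.02, -0.29 and -0.34 from MII to morula, with 4 of 13, 5 of 5, 3 of 10, 7 of 13, 4 of 19 and 5 of 15 shared sites higher than at GV. Of all sites shared with GV, 41.1%, 66.8%, 45.3%, 61.1%, 61.6% and 62.5% were higher from MII to morula. In EIF4G2, 13 of 21, 2 of 4, 11 of 12, 13 of 17, 13 of 18 and 7 of 11 shared sites were higher than at GV at these 6 stages.

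By motif, 25 of the 102 sites match DRACH, 74 have a G before the adenosine without matching it, and 3 have no G before it. From MII to blastocyst 9, 3, 8, 9, 14, 9 and 17 of the 25 DRACH sites were called, while 45.3%, 8.67%, 25.8%, 11%, 7.69%, 5.32% and 9.09% of all GV-called DRACH sites were. Of the 74 sites 36, 19, 27, 34, 36, 30 and 38 were called, against 29%, 6.84%, 21.5%, 8.83%, 5.25%, 4.07% and 7.25% of all sites of that class. The 3 sites with no G before, site 12 of EIF4A1, site 27 of EEF2 and site 11 of PABPC4, were called in 3, 1, 3, 3, 3, 2 and 3 cases, against 38.5%, 7.65%, 31.1%, 13%, 8.59%, 4.7% and 9.66%. The 25 DRACH sites and the 74 sites were thus both at their fewest in 2-cell embryos and at their most in blastocysts. This course is therefore not particular to DRACH. EEF2 held 9 of the 17 DRACH sites called in blastocysts.

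In each gene the median GV score was higher at the sites called in blastocysts than at its other sites. The medians were 0.182 and 0.144 in EIF4G2 and 0.165 and 0.126 in EIF4A1, for called and other sites in that order. In EEF2 they were 0.223 and 0.140, and in PABPC4 0.313 and 0.155. Called and other sites numbered 23 and 16 in EIF4G2, 13 and 4 in EIF4A1 and 19 and 10 in EEF2. In PABPC4 they numbered 3 and 14. Single sites could differ, as PABPC4 site 12 was called in blastocysts with 0.119 at GV. Over all GV-called sites the medians were 0.224 and 0.216. The blastocyst calls had chosen the genes, so no test was made.

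Related genes give a measure beside the members, though the sources used here do not say how reads shared by close relatives or pseudogene copies were assigned. EIF4A2, a helicase close to EIF4A1, had 30 GV-called sites, of which 14, 3, 10, 10, 5, 5 and 8 were called from MII to blastocyst. EIF4A3, the helicase of the exon junction complex, had 1 of 8 called in blastocysts. EIF4G1, the main eIF4G scaffold, had 16 GV-called sites, with 3, 0, 3, 6, 10, 5 and 9 called later, and EIF4G3 had 0 of 6 called in blastocysts. PABPC1, the main cytoplasmic poly(A)-binding protein gene, had 20 sites, with 11, 1, 8, 10, 12, 10 and 11 called later, while PABPC1L, a relative expressed in mouse oocytes, had 2 GV-called sites and none later. EEF1A1, which brings aminoacyl-tRNA to the ribosome, had 5 of 10 called in blastocysts. PABPC1 thus had more of its sites called in blastocysts than PABPC4, with 11 of 20 against 3 of 17.

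**Figure D5:**
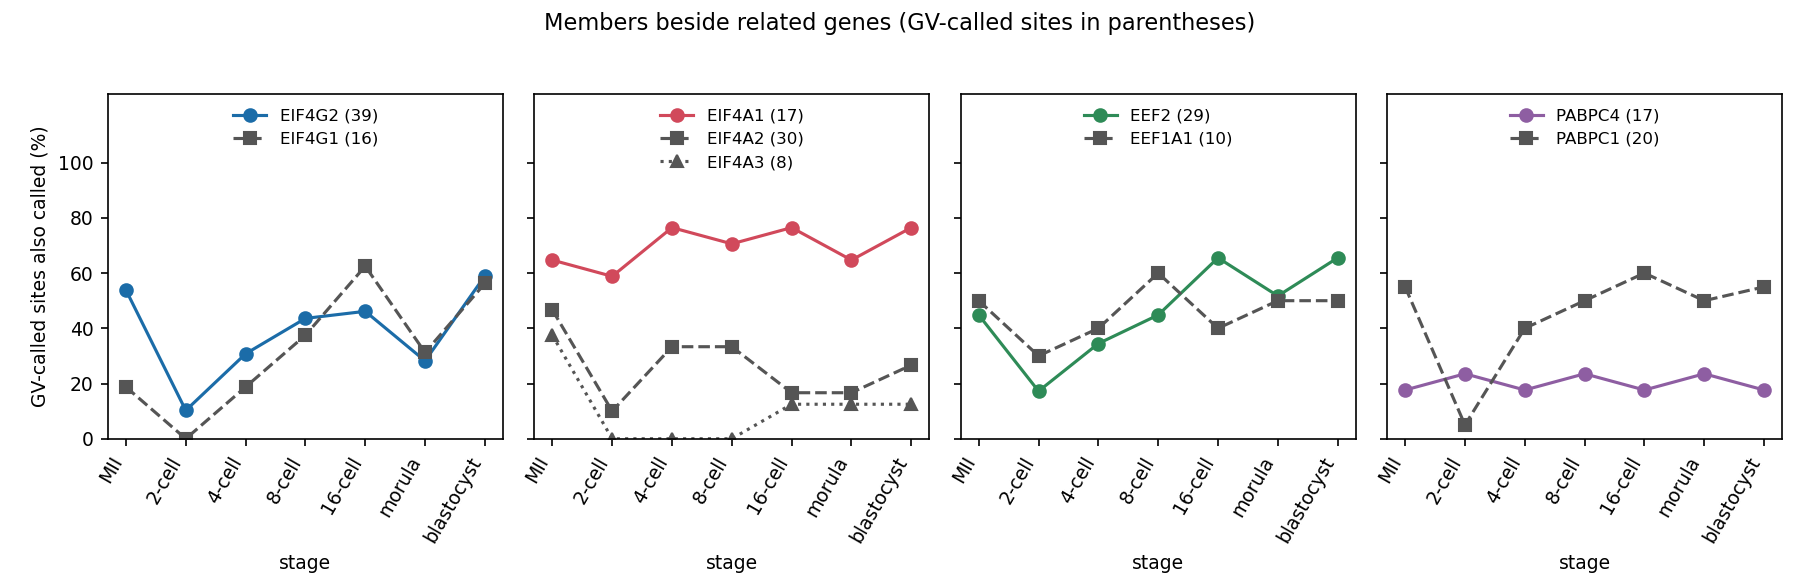
The percentage of GV-called sites called at the 7 later stages in each member (coloured circles) and in related genes (grey squares and triangles), with the number of GV-called sites in the legend. EIF4A1 lies above EIF4A2 and EIF4A3 at each stage, EIF4G1 and EIF4G2 end close together, and PABPC1 lies above PABPC4 except at the 2-cell stage.

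Genes of the wider machinery were counted from lists that leave out the 4 members. Of 50 initiation genes 37 had GV-called sites, 424 in all, and 36.3%, 8.73%, 27.6%, 17.2%, 15.8%, 13.9% and 22.4% of these were called from MII to blastocyst. In blastocysts 20 of the 37 genes lay above the 7.64% of all sites, and the median gene was at 12.5%. The 3 genes with most sites, apart from EIF4A2, had hardly any in blastocysts. EIF5B, which joins the ribosomal subunits, had 40 sites at GV and 1 in blastocysts, EIF4ENIF1, which carries eIF4E between nucleus and cytoplasm, 32 and 0, and the eIF2 kinase gene EIF2AK1 27 and 0. EIF4ENIF1 still had 20 called sites at the 4-cell stage. Other genes with many sites, chosen after their values were seen, had more calls in blastocysts, with 8 of 21 in EIF3E and 6 of 25 in EIF3L, subunits of the initiation factor eIF3.

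Elongation and termination genes had 70 GV-called sites in 11 of 23 genes, with 5.71% called in 2-cell embryos and 22.9% in blastocysts. The blastocyst calls lie in 4 of the 11 genes, and the median gene was at 0%. GSPT1, a release factor, had 6 of 22 sites called in blastocysts, EEF1D, a subunit of the exchange factor of EEF1A1, 1 of 10, and DPH2, an enzyme of the diphthamide pathway that modifies the EEF2 protein, 0 of 18. Poly(A) binding genes and regulators of the cap or tail had 138 sites in 11 of 17 genes, with 21.7% called in 2-cell embryos and 16.7% in blastocysts. Here 5 of the 11 genes had a blastocyst call, and the median gene was again at 0%. PAIP1, a partner of poly(A)-binding protein, had 27 sites at GV, 16 in 2-cell embryos and 1 in blastocysts, and CPEB1, which controls tail length in frog and mouse oocytes, 27, 12 and 0. CPEB4, a relative of CPEB1, had 25, 1 and 0. PAIP1 and CPEB1 had sites in 2-cell embryos and hardly any in blastocysts, which is the reverse of EEF2 and EIF4G2.

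By the 7 percentages after GV, the genes with at least 20 GV-called sites that lay nearest to each member were found by Euclidean distance, in percentage points. HNRNPF (25.1), HNRNPU (28.4), PABPC1 (28.9), EEF2 (33.4) and NPM1 (34.1) were nearest to EIF4G2. PABPC1 (21.3), HSPA8 (28.4), EIF4G2 (33.4), PCBP1 (34.5) and H1-5 (41.3) were nearest to EEF2. EIF4G2 and EEF2 were among each other's 5 nearest of 689 genes. Both had been chosen because many of their sites were called late, and the distance uses these calls, so this nearness is not a result. For EIF4A1 the nearest were 5S_rRNA, H3C6, PCBP1, EZR and HSPA8, at 45.5 to 52.1, farther off than for the other members. EIF4A1 was chosen on such calls as well and has 17 sites only, so its distance is not a result either. PABPC4 was nearest to CDC25A (24.2), NUDT4 (28.5), CAPZA1 (31.8), SRRM2 (32.1) and APLP2 (32.5). These genes had 1 of 22, 3 of 22, 6 of 24, 11 of 36 and 5 of 25 sites called in blastocysts. All distances come from single values per stage, and genes share the libraries.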

How the data were processed

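Per the labels, total RNA went through SAC-seq and NEBNext Ultra II library preparation, and the submitters' processing notes name Trimmomatic 0.39 and STAR 2.5.3a. Not given in the sources used here are the site caller, annotation, genome build and how arms and replicates were combined. Per adenosine and stage the authors deposited a single score. Its scale is not stated, and although the table's name speaks of raw counts, fractional values fill it. Counting its header line, the file ends at 65536 lines, where old spreadsheet formats end, so it may be incomplete. Each stage column was taken as the authors' value of that stage, and 0 further sample columns remained.

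A site was called at a score of at least 0.1. Sites were taken by gene symbol, and RefSeq (ARS-UCD2.0) was used to check names alone, with all 102 inside the span of their gene. Shares have exact Clopper-Pearson intervals at 95%. No p-value is given, since each stage has 1 value. Members, lists and rules were chosen with earlier results of these data known. Sites named by rule are those called at all 8 stages and the strongest at GV and in blastocysts; the other sites were named after their values were seen. Related genes and the 3 further genes with most sites were named per list. Counting was tested on a simulated table of 65535 sites with 200 planted genes, where 16 of 16 checks passed. Alternatives were a call at 0.2, any score above 0, DRACH motifs, sites within 5 bases counted as 1, coding sites, each gene left out, and the mean of the genes. Software was scipy 1.17.1, matplotlib 3.10.9, pandas 2.3.3 and numpy 2.4.6 under Python 3.11.15.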

Additional observations from a re-analysis of the deposited data

How the results depend on the processing

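The share of the 4 genes' GV-called sites called in blastocysts, 56.9%, became 66.7% with any score above 0 and 68% at the 25 DRACH sites, and it stayed between 52.9% and 64.7% under the other alternatives. The 2-cell share of 22.5% became 12% at DRACH sites and 34.7% at coding sites, and stayed between 15.3% and 30.2% otherwise, the lowest without EIF4A1. For single genes, 135 of 167 values under an alternative stayed, 27 moved and 5 changed sign. Staying meant within the counting interval, or within 1.5 times or 1 SD for numbers of sites and ratios. The intervals are wide, so a value that stayed can still be far off. At a call of 0.2 the 2-cell share of EIF4A1 went from 58.8% to 33.3%, 1 of 3 sites, which counted as staying. The 5 that changed sign are all medians of the log2 ratio of blastocyst to GV score. EIF4G2 went from 0.01 to -0.066 with any score above 0 and to -0.064 at DRACH sites, EIF4A1 from -0.06 to 0.18 at a call of 0.2 and to 0.28 at DRACH sites, and EEF2 from -0.25 to 0.084 at DRACH sites. These alternatives use other sites of the gene, between 2 and 26, and the cause was not tested. Of the 27 that moved, 12 did so at a call of 0.2, 10 at DRACH motifs and 5 with any score above 0. Counting sites within 5 bases as 1 moved none, but it left 97 of 102 sites and so changed little. No paired analysis was possible because the table holds 1 score per stage and no value per replicate, and replicates could not be left out for the same reason. Depth is unknown, so a missing call can reflect few reads.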
